A study of Arabidopsis thaliana with 30 samples.

Results

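The 10 genes described here are phosphate starvation genes of Arabidopsis thaliana, a set of transcripts that plants raise when inorganic phosphate runs short. They were taken by gene identifier from a table of 27655 genes: GDPD1 (AT3G02040), GDPD2 (AT5G41080), SPX1 (AT5G20150), SPX3 (AT2G45130), MGD2 (AT5G20410), MGD3 (AT2G11810), SQD2 (AT5G01220), PHT1;4 (AT2G38940), PHO1;H1 (AT1G68740) and PAP17 (AT3G17790). Earlier results of these data were known when the 10 genes were chosen. Their counts set against the share of all genes may follow in part from that choice. All 10 passed the filter on low counts. They were followed in whole seedlings aged 12 days, either Col-0 wild type or ein2-5, a mutant of EIN2, the membrane protein that passes the ethylene signal on towards the nucleus. All seedlings had grown on agar plates with Murashige and Skoog (MS) medium and sucrose, a medium that contains phosphate, and this holds for the controls too. Treated seedlings were then covered with liquid MS, or with liquid MS that held antimycin A (AA) at 20 µM, an inhibitor of complex III of the mitochondrial respiratory chain, and collected after 3 h or 24 h. Untreated seedlings of each genotype were not covered. This gave 10 groups of 3 libraries, 30 in all. Each library holds RNA of whole seedlings, in which fewer cells of a type and less RNA per cell cannot be told apart.

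In plants, the transcription factor PHR1 and its relatives drive most of the phosphate starvation response by binding a short palindromic element, P1BS, near their target genes. SPX proteins sense phosphate status through inositol pyrophosphates and, when phosphate is ample, hold PHR1 off that element. Among the targets are enzymes that break down phospholipids and replace them with phosphate-free galactolipids and sulpholipids, transporters that take up and move phosphate, and secreted or vacuolar phosphatases that free phosphate from organic compounds.

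The 10 genes lie on chromosomes 1, 2, 3 and 5, and their starts were read from the RefSeq annotation of TAIR10.1. The letters GNATATNC, which are P1BS and read the same on both strands, were searched around each start. In the window from 250 bases before to 50 bases after the start, 6 of the 10 genes held the element and 3 held it more than once, against 6.25% of 27443 windows of protein-coding genes that held it and 0.299% that held it more than once. The count depended on the window. Within 300 bases upstream of the start 3 of the 10 genes held it, against 6.5% of all genes, and within 1000 bases upstream 5 did, against 20.3%. The upstream windows of GDPD1 and SPX3 are shown because each holds the element at 2 places, and that of PAP17 because it holds none while its transcript levels resembled those of GDPD1. Capitals mark the element, and each sequence runs 5′ to 3′ on the strand of the gene towards the base before its start (RefSeq, TAIR10.1).
GDPD1 (chr3:350011-350310, minus strand): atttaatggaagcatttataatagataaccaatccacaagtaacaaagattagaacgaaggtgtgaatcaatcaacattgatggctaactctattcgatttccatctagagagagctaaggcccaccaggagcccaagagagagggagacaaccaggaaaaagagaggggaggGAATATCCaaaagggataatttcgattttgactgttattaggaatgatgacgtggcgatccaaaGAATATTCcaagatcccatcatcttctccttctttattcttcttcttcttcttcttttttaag
SPX3 (chr2:18606110-18606409, plus strand): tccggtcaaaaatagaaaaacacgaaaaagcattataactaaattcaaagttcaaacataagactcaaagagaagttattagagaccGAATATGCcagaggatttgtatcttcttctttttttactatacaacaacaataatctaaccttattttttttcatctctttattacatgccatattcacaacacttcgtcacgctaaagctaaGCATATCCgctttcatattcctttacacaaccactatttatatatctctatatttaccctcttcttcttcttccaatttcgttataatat
PAP17 (chr3:6089081-6089380, plus strand): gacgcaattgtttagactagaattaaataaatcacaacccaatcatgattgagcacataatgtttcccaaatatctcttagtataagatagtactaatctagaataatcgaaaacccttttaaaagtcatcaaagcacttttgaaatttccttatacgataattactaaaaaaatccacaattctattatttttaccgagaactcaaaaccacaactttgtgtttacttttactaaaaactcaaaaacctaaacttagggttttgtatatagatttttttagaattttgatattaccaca
In GDPD1 the element began 127 and 63 bases upstream of the start, as GAATATCC and GAATATTC, and 2 more copies began 324 and 312 bases upstream. In SPX3 it began 213 bases upstream as GAATATGC and 90 bases upstream as GCATATCC. MGD2 held it 501 and 14 bases upstream and again 37 bases downstream of the start. SPX1 held it 735 bases upstream and 22 bases downstream. In GDPD2 the only match began 42 bases downstream of the start, in SQD2 it began 340 bases upstream, and in PHT1;4 it began 7 bases upstream and ran into the transcript. MGD3, PHO1;H1 and PAP17 held no match in these windows, which says only that the letters are absent there.

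**Figure D1:**
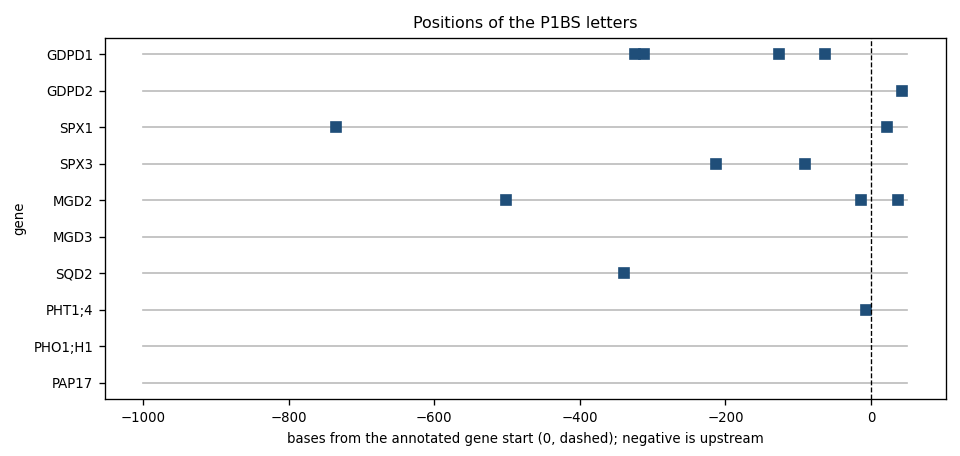
Positions of the letters GNATATNC from 1000 bases upstream to 50 bases downstream of the annotated start (dashed line, in bases) of the 10 phosphate starvation genes. Squares mark the first base of each match, and 3 genes hold none.

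Library totals ranged from 21.2 to 32.6 M counted read pairs, with a median of 24.3 M. CPM are read pair counts scaled to a common library size. On that scale EIN2 transcript averaged 105 to 118 CPM in wild type and 39.0 to 45.7 CPM in ein2-5 across groups, in the direction of the genotype labels. Replicate libraries of a group differed by more than sampling noise in every pair (chi-square per degree of freedom at least 3.43), and replicate 3 of ein2-5 in MS at 3 h stood farthest from its group (up to 34.8, against 20.6 at most for other pairs). The labels do not say whether replicates came from separate cultures, so p-values measure the spread between these libraries, which may be technical. CASP1, a marker of root endodermis, and RBCS1A, a leaf marker, were both measured in the whole seedlings. Levels below are CPM scaled by library size, changes are log2 fold changes ± SE from 1 model of all 30 libraries, and adjusted p-values come from edgeR's quasi-likelihood test with Benjamini-Hochberg adjustment over 21256 genes, with 0.05 as the threshold.

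Over the 30 libraries with group means removed, 9 of the 10 genes moved together, and GDPD2 did not move with them. Replicate 2 of untreated wild type was the highest of its group for 10 of the 10 genes, and replicate 3 of untreated ein2-5 for 9. Replicate 3 of ein2-5 in MS was the highest for 8 genes at 3 h and for 8 at 24 h. Not every group had such a library. In wild type at 3 h the libraries in MS were highest for 4, 3 and 3 genes, and those in AA for 4, 4 and 2. Highest libraries were not counted over all genes, so a shift of the whole library cannot be told apart. After the group means were removed, 36 of the 45 pairs of genes were positively correlated over the 30 libraries, with a median r of 0.63 and a range from -0.45 to 0.92. The 9 negative pairs were the 9 pairs that include GDPD2, from -0.45 with SPX3 to -0.0116 with GDPD1. These values describe libraries that share their RNA and depth. Calls of the 10 genes that were lost or gained without 1 library are given beside the results below.

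**Figure D2:**
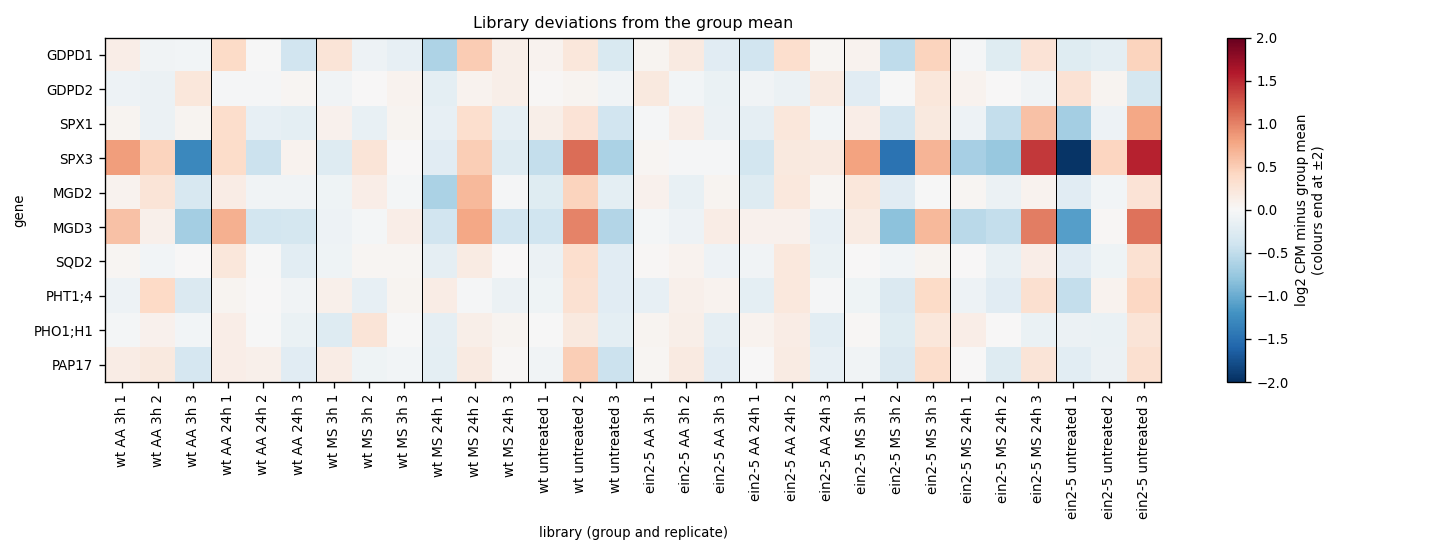
Deviation of each library from its group mean, in log2 CPM, for the 10 genes (rows) and 30 libraries (columns, 3 per group between vertical lines). Untreated wild type replicate 2 is the highest of its group for 10 genes, and SPX3 and MGD3 show the widest deviations.

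Across the 10 groups, the wild type in MS at 3 h was the lowest group for 9 of the 10 genes, and for MGD3 it was wild type in MS at 24 h. Lowest groups were not counted over all genes. The range between the highest and the lowest group mean was 15.7-fold for SPX3, 15.3-fold for GDPD2, 6.88-fold for GDPD1, 4.94-fold for MGD3, 4.39-fold for PAP17, 4.34-fold for SPX1, 3.43-fold for PHT1;4, 2.49-fold for MGD2, 2.01-fold for PHO1;H1 and 2.0-fold for SQD2. On the scale of CPM per kilobase of exon, SQD2 (37.5), SPX1 (36.3) and GDPD2 (36.1) were the most abundant and SPX3 (2.05) the least. SPX3 therefore rests on the fewest counts of the 10. For GDPD2 the order of group means ran from untreated wild type and untreated ein2-5 through AA at 3 h, wild type before ein2-5, to ein2-5 in MS at 24 h, ein2-5 in AA at 24 h, ein2-5 in MS at 3 h, wild type in MS at 24 h, wild type in AA at 24 h and wild type in MS at 3 h. In 5 of its 9 neighbouring pairs the libraries did not overlap. The other genes had 0 to 3 such pairs, and for SPX3, MGD3 and PHO1;H1 every pair of neighbours overlapped. The groups were ordered by these same means, and such pairs were not counted over all genes.

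**Figure D3:**
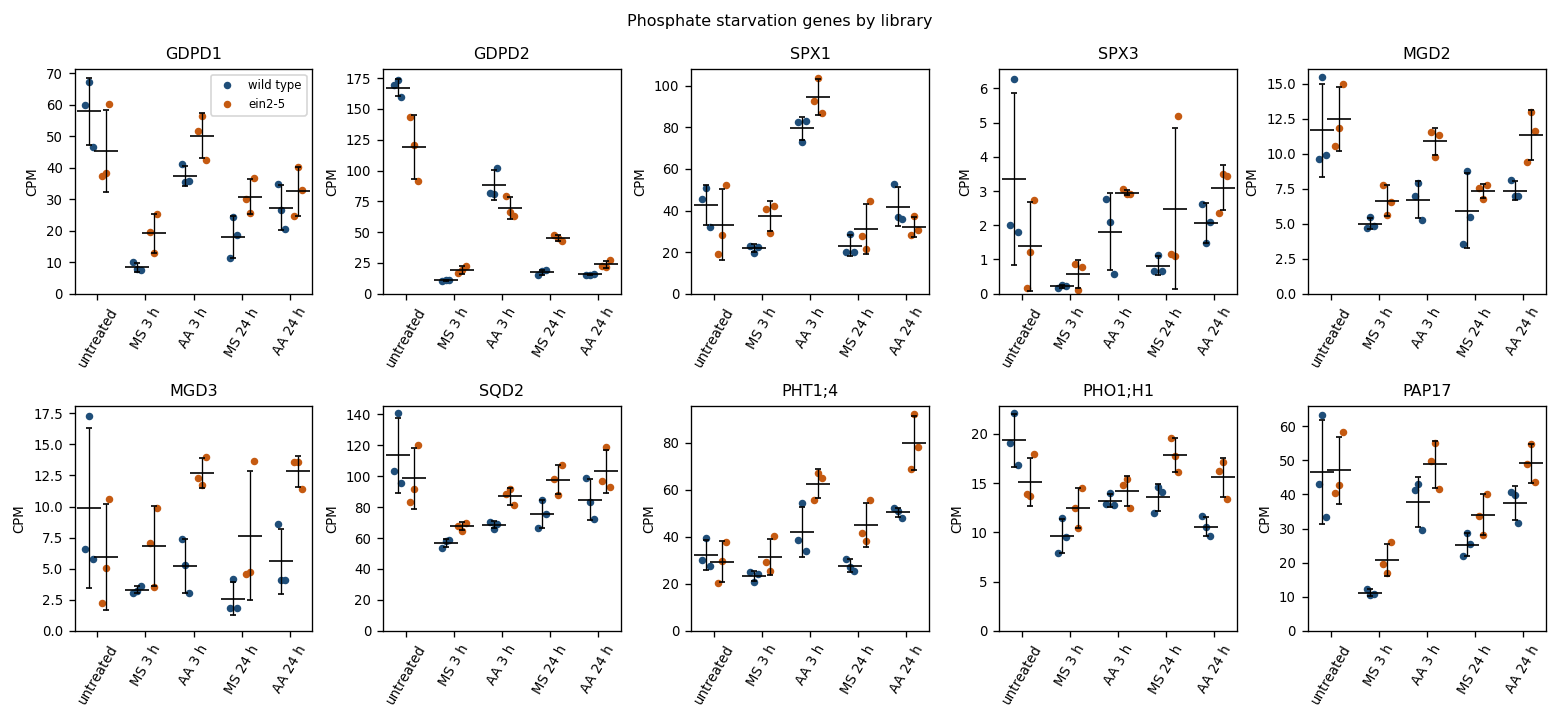
Level of each of the 10 genes in CPM (linear axes from 0) in wild type and ein2-5 by treatment. Points are libraries, and lines with bars are the mean ± SD of 3 libraries. GDPD2 falls from 167 CPM in untreated wild type to 10.96 CPM in MS at 3 h and stands at 88.4 CPM in AA at 3 h.

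Covering seedlings with MS was compared with leaving them untreated, to show how these genes stood once the plants were covered. The labels name the time as the batch, so medium, time of collection and batch cannot be told apart here. In wild type at 3 h, 9 of the 10 genes fell, against 17.4% of all genes tested that fell. At 24 h 9 fell, against 11.1%. In ein2-5, 5 fell at 3 h, against 14.4%, and at 24 h 2 fell, against 6.57%, while 1 rose, against 8.44%. The median log2 fold change of the 10 genes in wild type was -1.40 at 3 h and -0.93 at 24 h, and in ein2-5 -0.72 and -0.05, while the median of all genes tested lay between -0.01 and 0.02.

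The glycerophosphodiester phosphodiesterases GDPD1 and GDPD2, which release glycerol-3-phosphate from the head groups of degraded phospholipids, fell in both genotypes at 3 h. GDPD2 stood at 169.5, 173 and 159.6 CPM in untreated wild type and at 10.4, 10.97 and 11.5 CPM in MS at 3 h, with no overlap, a log2 fold change of -3.93 ± 0.14 (adjusted p = 2.42e-19). At 24 h in MS it was still at 15.02, 18.3 and 18.9 CPM (-3.27 ± 0.14, adjusted p = 2.06e-16). In ein2-5 GDPD2 went from 144, 121 and 91.8 CPM untreated to 16.4, 19.2 and 22.5 CPM at 3 h (-2.62 ± 0.13, adjusted p = 6.64e-16) and 47.5, 45.6 and 43.1 CPM at 24 h (-1.39 ± 0.13, adjusted p = 2.51e-09). All MS libraries of both genotypes lay below all untreated ones. GDPD1 fell in wild type from 59.7, 67.2 and 46.5 CPM to 10.02, 7.76 and 7.43 CPM at 3 h (-2.78 ± 0.26, adjusted p = 3.69e-10) and to 11.2, 24.3 and 18.6 CPM at 24 h (-1.68 ± 0.24). In ein2-5 it fell at 3 h (-1.24 ± 0.24, adjusted p = 0.000129), and at 24 h its change of -0.56 ± 0.23 did not pass (adjusted p = 0.115).

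The phosphate sensors SPX1 and SPX3 fell in wild type. SPX1 went from 45.7, 50.7 and 32.1 CPM to 23.2, 19.6 and 22.6 CPM at 3 h (-0.97 ± 0.25, adjusted p = 0.00308) and to 20.3, 28.8 and 20.04 CPM at 24 h (-0.89 ± 0.25, adjusted p = 0.011). SPX3, the rarest of the transcripts, went from 2.02, 6.27 and 1.8 CPM to 0.162, 0.268 and 0.211 CPM at 3 h (-3.95 ± 0.80, adjusted p = 0.000216). For both genes the MS and untreated libraries of wild type did not overlap at 3 h or at 24 h. In ein2-5 neither gene passed at either time, and the untreated libraries of SPX1 spread over 18.9, 28.4 and 52.1 CPM and overlapped those in MS. Without the untreated ein2-5 library at 52.1 CPM, replicate 3, SPX1 passed as higher in MS at 3 h (0.66 in place of 0.17, adjusted p = 0.0368), and at 24 h its change was 0.40 (adjusted p = 0.321).

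Among the lipid enzymes, MGD2 and MGD3 make galactolipids at the outer envelope of plastids, and SQD2 makes the sulpholipid. MGD2 fell in all 4 comparisons, from 11.7 ± 3.29 CPM to 4.99 ± 0.403 CPM (mean ± SD, n = 3) in wild type at 3 h (-1.22 ± 0.22) and by a log2 fold change of -0.91 ± 0.22 in ein2-5. SQD2 stood at 104, 141 and 95.8 CPM in untreated wild type and at 53.5, 58.1 and 58.5 CPM in MS at 3 h with no overlap and means of 113 ± 24.1 CPM and 56.7 ± 2.76 CPM (± SD, n = 3, edgeR adjusted p = 3.73e-07). It also fell in wild type at 24 h (-0.59) and in ein2-5 at 3 h (-0.54). MGD3 fell in wild type at both times (-1.57 and -1.92), but its untreated libraries stood at 6.59, 17.3 and 5.75 CPM, and without replicate 2 the changes were -0.89 (adjusted p = 0.194) and -1.24 (adjusted p = 0.0985).

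Of the transport genes, PHT1;4, a phosphate uptake transporter of the plasma membrane, did not pass in wild type (-0.47 ± 0.19 at 3 h, adjusted p = 0.0553, and -0.58 with 0.0357 without untreated replicate 3), and in ein2-5 it rose at 24 h from 20.5, 29.8 and 37.9 CPM to 41.6, 38 and 55.5 CPM (0.61 ± 0.19, adjusted p = 0.0235). PHO1;H1, a relative of the xylem-loading phosphate exporter PHO1, fell in wild type from 19.03, 22.1 and 16.8 CPM to 7.91, 11.4 and 9.5 CPM at 3 h (-1.01 ± 0.14). PAP17, a purple acid phosphatase, fell in wild type from 43.1, 63.3 and 33.5 CPM to 12.4, 10.5 and 10.7 CPM at 3 h (-2.05 ± 0.20, adjusted p = 1.21e-09) and in ein2-5 from 40.3, 42.7 and 58.4 CPM to 19.6, 16.8 and 26.1 CPM (-1.18 ± 0.19). The PAP17 libraries in MS at 3 h lay below every untreated library of their genotype. Reads were counted without strand, and GDPD1 and PAP17 each overlap an annotated gene on the other strand, whose reads cannot be told apart from theirs.

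Without replicate 2 of untreated wild type, 5 of the 10 genes fell in wild type at 24 h: the calls of SPX1, SPX3, MGD3 and PHO1;H1 were lost (-0.75, -1.21, -1.24 and -0.40, adjusted p = 0.0635, 0.255, 0.0985 and 0.0743). The calls of SPX1 and SPX3 were also lost without replicates 1 or 3 in MS and that of PHO1;H1 without replicate 1 in MS. In ein2-5 at 24 h the MGD2 call was lost without replicate 2 in MS or untreated replicate 3 (-0.70 to -0.60, adjusted p 0.0577 to 0.0996), and the PHT1;4 call without replicate 3 in MS or untreated replicate 1 (0.42 to 0.44, adjusted p 0.158 to 0.182). At 3 h 15.8% of all genes tested rose in wild type and 17.3% in ein2-5. Of 8 shoot markers 4 rose and 2 fell in wild type and 3 rose and 3 fell in ein2-5 at 3 h, and of 15 root markers 1 fell in wild type and 2 rose and 2 fell in ein2-5. At 24 h 4 shoot markers rose in wild type, where 8.78% of all genes rose, and 3 rose in ein2-5, where 8.44% did. Their part was not tested.

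AA was compared with MS of the same time and genotype, so that both sides had been covered with liquid. At 3 h, 7 of the 10 genes rose in wild type, against 6.2% of all genes tested that rose, and 7 rose in ein2-5, against 6.62%. The median log2 fold change of the 10 was 1.31 and 1.11, while that of all genes tested was -0.01 in both. At 24 h 3 rose in wild type, against 6.48%, and in ein2-5 2 rose, against 5.9%, and 1 fell, against 7.95%. The 6 genes GDPD1, GDPD2, SPX1, SPX3, PHT1;4 and PAP17 rose at 3 h in both genotypes. The MS libraries are shared between these comparisons and the preceding ones, so a low MS level enters both.

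GDPD2 at 3 h stood at 81.7, 80.99 and 102 CPM in AA against 10.4, 10.97 and 11.5 CPM in MS in wild type, a log2 fold change of 3.01 ± 0.14 (adjusted p = 2.55e-16). In ein2-5 it stood at 79.5, 66.3 and 62.8 CPM against 16.4, 19.2 and 22.5 CPM (1.85 ± 0.13, adjusted p = 4.76e-12). In both genotypes every AA library was above every MS library and below every untreated library, although AA and untreated were not tested against each other. By 24 h the AA libraries of wild type stood at 15.5, 15.6 and 16.2 CPM (-0.14 ± 0.14, adjusted p = 0.574), and in ein2-5 GDPD2 was lower in AA, at 22.7, 21.9 and 27.1 CPM against 47.5, 45.6 and 43.1 CPM (-0.93 ± 0.13, adjusted p = 5.90e-06).

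GDPD1 at 3 h stood at 40.98, 35.4 and 35.8 CPM in AA against 10.02, 7.76 and 7.43 CPM in MS in wild type (2.15 ± 0.26, adjusted p = 2.40e-07). In ein2-5 it stood at 51.7, 56.4 and 42.5 CPM against 19.4, 12.9 and 25.1 CPM (1.39 ± 0.24, adjusted p = 8.07e-05). The AA libraries of both genotypes were separate from MS at 3 h and overlapped with it at 24 h, when the changes were 0.60 and 0.08 and did not pass.

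SPX1 was the 1 gene of the 10 whose AA level at 3 h lay above its untreated level in every library of both genotypes. It stood at 82.8, 73.1 and 82.9 CPM in wild type (1.87 ± 0.25 against MS, adjusted p = 2.15e-06) and at 92.8, 104 and 87 CPM in ein2-5 (1.34 ± 0.25, adjusted p = 0.000185). These levels and the untreated ones are set side by side and were not tested. At 24 h SPX1 passed in wild type (0.86 ± 0.25, adjusted p = 0.0212), and in ein2-5 its change was 0.05 ± 0.25. SPX3 at 3 h stood at 2.77, 2.08 and 0.574 CPM in wild type and at 3.05, 2.92 and 2.91 CPM in ein2-5, against means of 0.214 and 0.586 CPM in MS (3.06 ± 0.83, adjusted p = 0.0132, and 2.34 ± 0.68, adjusted p = 0.0188). In MS at 3 h SPX3 had 4 to 6 counts per library in wild type and 3 to 21 in ein2-5, and its fold changes had wide SEs. Whether low counts or differences between libraries made them wide was not tested.

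PHT1;4 rose at both times in both genotypes. In wild type it stood at 38.4, 54.2 and 33.8 CPM at 3 h (0.86 ± 0.19, adjusted p = 0.00197) and at 52.2, 50.9 and 48.2 CPM at 24 h (0.86 ± 0.19, adjusted p = 0.00178). In ein2-5 it stood at 55.7, 66.9 and 65.2 CPM at 3 h (0.99 ± 0.19) and at 68.97, 92.02 and 78.4 CPM at 24 h (0.83 ± 0.18, adjusted p = 0.0021). No AA library of PHT1;4 overlapped the MS libraries of its time and genotype, and its 4 calls were kept in every alternative setting run.

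PAP17 at 3 h rose from 12.4, 10.5 and 10.7 CPM in MS to 41.2, 42.9 and 29.5 CPM in AA in wild type (1.76 ± 0.20, adjusted p = 1.16e-07) and in ein2-5 by 1.23 ± 0.19 (adjusted p = 1.97e-05). At 24 h it passed narrowly in wild type (0.56 ± 0.19, adjusted p = 0.0486) and not in ein2-5 (0.53 ± 0.19, adjusted p = 0.0573). Among the lipid enzymes MGD2 passed in ein2-5 at 3 h (0.71 ± 0.22) and at 24 h (0.62 ± 0.21). MGD3 and SQD2 passed in none of the 4 comparisons, with log2 fold changes from 0.66 to 1.09 and from 0.08 to 0.36. At 3 h SQD2 in wild type stood at 70.6, 66.03 and 69.1 CPM in AA and at 53.5, 58.1 and 58.5 CPM in MS. In ein2-5 the AA and MS libraries of SQD2 did not overlap at 3 h either. With the compared libraries alone SQD2 passed at 3 h in both genotypes (edgeR adjusted p = 0.0233 and 0.0163). DESeq2 called it in ein2-5 (0.0328), and MGD3 passed alone in wild type at 24 h (edgeR, 0.0260). PHO1;H1 passed in wild type at 3 h (0.46 ± 0.15, adjusted p = 0.04).

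**Figure D4:**
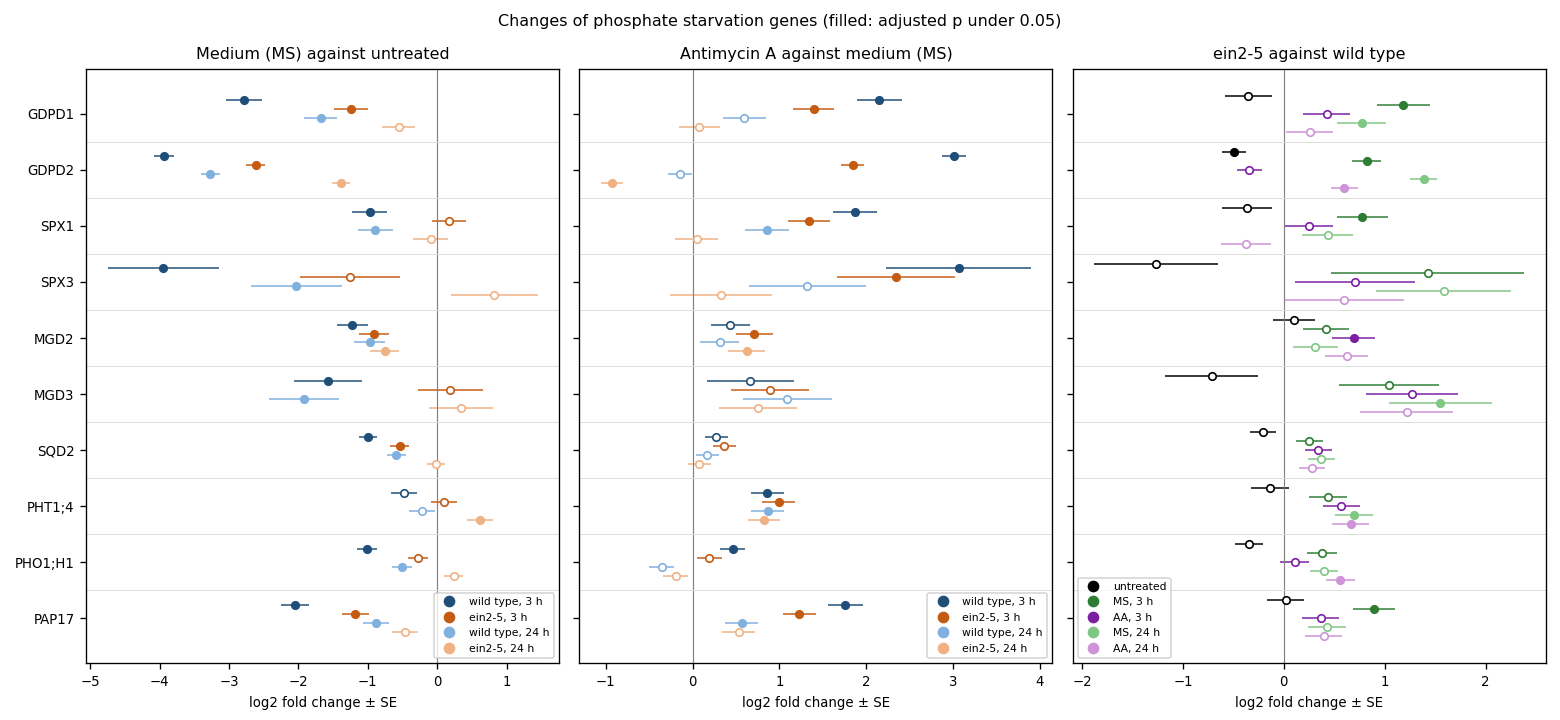
Log2 fold change ± SE of the 10 genes for MS against untreated, AA against MS, and ein2-5 against wild type. Filled points passed an adjusted p under 0.05. GDPD2 in ein2-5 has the only passed change of AA at 24 h in the downward direction, -0.93.

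Several of these calls sit near the threshold and changed sides when a library was left out, and the log2 fold changes without it are given first. At 3 h SPX3 was lost in wild type without replicate 1 in AA or replicates 1 or 3 in MS (2.63 to 3.06, adjusted p 0.0550 to 0.0747), and in ein2-5 without replicate 2 in MS (1.85, 0.0956). PHO1;H1 in wild type was lost without 5 of its 6 libraries, the exception being replicate 2 in MS (0.35 to 0.49, 0.0577 to 0.205), and with upper-quartile scaling (0.0570). MGD2 in ein2-5 was lost at 3 h without replicates 1 or 3 in AA or 2 or 3 in MS (0.61 to 0.72, 0.0579 to 0.10). At 24 h it was lost without any library but replicate 1 in AA (0.51 to 0.66, 0.0762 to 0.196) and with upper-quartile scaling (0.0614). At 24 h in wild type SPX1 was lost without replicate 1 in AA or replicates 1 or 3 in MS (0.66 to 0.78, 0.0925 to 0.139). PAP17 was lost without any library but replicate 3 in AA (0.47 to 0.66, 0.0545 to 0.189) and with DESeq2 (0.0649). Calls were also gained at 24 h. Without replicate 2 in MS, GDPD1 (0.87, 0.0360) and MGD2 (0.70, 0.0420) passed in wild type, and without replicate 3 in MS, MGD3 (1.47, 0.0451) and PAP17 (0.66, 0.0332) passed in ein2-5.

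Root markers moved with AA at both times and shoot markers mostly at 24 h, and their part in these results was not tested. Of 15 root markers, 7 fell and 1 rose in wild type at 3 h and 6 fell in ein2-5, and their summed level was 1133 to 1286 CPM in AA against 1952 to 2261 CPM in MS in wild type. Of all genes tested 3.8% fell in wild type and 6.22% in ein2-5 at 3 h. At 24 h 9 root markers fell in wild type and 7 in ein2-5, against 6.5% and 7.95% of all genes. Of 8 shoot markers 6 fell in wild type and 7 in ein2-5 at 24 h. At 3 h 1 of the 8 fell in wild type, with a median log2 fold change of -0.16. In ein2-5 at 3 h 0 passed, all 8 changes were positive and the median was 0.13. Most of the root sum came from PYK10, a root beta-glucosidase noticed after its values were seen (1055 CPM in AA and 1851 CPM in MS in wild type at 3 h), and CASP5 was at 0 in all wild-type libraries in AA at 24 h. CASP1 stood at 24.7 CPM in AA and 28.8 CPM in MS in wild type at 3 h.

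ein2-5 was compared with wild type within each treatment to ask whether EIN2 bears on these levels. In untreated seedlings 1 of the 10 genes was lower in ein2-5, against 2.82% of all genes tested. In MS 4 were higher at 3 h, against 5.87%, and 4 at 24 h, against 6.74%. In AA 1 was higher at 3 h, against 4.86%, and 3 at 24 h, against 5.5%. All 10 fold changes were positive in MS at both times, with a median of 0.80 at 3 h and 0.57 at 24 h, while the median of all genes was 0.02 and 0.00.

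Untreated ein2-5 had less GDPD2 than untreated wild type (-0.49 ± 0.12, adjusted p = 0.0139). In MS the sign was the other way. GDPD2 was higher in ein2-5 at 3 h (0.82 ± 0.14, adjusted p = 0.000199) and at 24 h, when ein2-5 stood at 47.5, 45.6 and 43.1 CPM and wild type at 15.02, 18.3 and 18.9 CPM (1.38 ± 0.13, adjusted p = 8.59e-09). GDPD1 was higher in MS at 3 h (1.18 ± 0.26, adjusted p = 0.00293) and at 24 h (0.77 ± 0.24, adjusted p = 0.0352). At 3 h in MS SPX1 (0.78, adjusted p = 0.0464) and PAP17 (0.89, adjusted p = 0.00403) were also higher, and at 24 h MGD3 (1.55, adjusted p = 0.0441) and PHT1;4 (0.70, adjusted p = 0.0126). In AA, MGD2 was higher in ein2-5 at 3 h (0.69, adjusted p = 0.0417), and GDPD2 (0.60), PHT1;4 (0.66) and PHO1;H1 (0.56) at 24 h.

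Many of these calls also sit near the threshold. Without replicate 3 of ein2-5 in MS at 3 h, the library that stood farthest from its group, 2 of the 10 genes were higher at 3 h, and PAP17 (0.70, adjusted p = 0.0514) and SPX1 (0.68, 0.168) were lost. SPX1 was also lost without any other library but replicate 2 of ein2-5 (0.68 to 0.82 over the 5 libraries, 0.0750 to 0.168), with RLE (0.0514) and upper-quartile scaling (0.0503) and with DESeq2 (0.0761). Without replicate 2 of ein2-5, PHO1;H1 passed at 3 h (0.49, 0.0414). At 24 h GDPD1 was lost without replicates 1 or 3 of either genotype (0.52 to 0.80, 0.0654 to 0.240), MGD3 without replicates 1 or 3 of wild type or replicate 3 of ein2-5 (0.84 to 1.35, 0.172 to 0.350), and PHT1;4 without replicate 3 of either genotype (0.52 to 0.64, 0.0668 to 0.0981). Without replicate 2 of wild type, MGD2 (0.70, 0.0448) and SQD2 (0.46, 0.0485) passed at 24 h. The untreated GDPD2 call was lost without replicate 2 of wild type or replicate 3 of ein2-5 (-0.47 to -0.34, 0.0515 to 0.136), while without the latter SPX1 was lower in untreated ein2-5 (-0.85, 0.0436). In AA, MGD2 at 3 h was lost without any library but replicate 2 of wild type (0.55 to 0.76, 0.0552 to 0.211). Without that library PHT1;4 passed at 3 h (0.79, 0.0125), and without replicate 1 of ein2-5 GDPD2 passed as lower (-0.46, 0.0450). At 24 h in AA, PHT1;4 (0.55 to 0.63, 0.0632 to 0.113) and PHO1;H1 (0.48 to 0.49, 0.0589 to 0.0688) were lost without replicate 3 of wild type or replicate 2 of ein2-5, and without replicate 1 of ein2-5 MGD2 passed (0.74, 0.0487).

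Of 15 root markers, 1 was higher and 1 lower in ein2-5 in MS at 3 h, and 1 was higher and 3 lower at 24 h, and of all genes tested 4.55% and 4.65% were lower. The median log2 fold change of the 15 was -0.05 at 3 h, with 5 positive, and -0.40 at 24 h, with 2 positive. Their summed level at 3 h was higher, at 2602 to 3160 CPM in ein2-5 and 1952 to 2261 CPM in wild type. Most of that wild-type sum came from PYK10. Of 8 shoot markers 6 were lower in ein2-5 in MS at 3 h and 2 at 24 h, with sums of 38942 to 50170.3 CPM in ein2-5 and 49819.7 to 59248 CPM in wild type at 3 h. The part of either list in these results was not tested.

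Whether an effect differed between genotypes or times was tested by interaction terms. The AA effect at 3 h differed between genotypes for GDPD2, whose rise was smaller in ein2-5 (difference -1.16 ± 0.19, adjusted p = 0.00744), against 0.0423% of all genes tested in that direction. At 24 h edgeR's test called 0 of the 10 genes, against 0.296%, with 2 at an unadjusted p under 0.05, and DESeq2 called 1, GDPD2 (-0.78, adjusted p = 0.0160), which edgeR also called without replicate 3 of ein2-5 in AA (-0.89, 0.0422). The MS effect at 3 h differed for GDPD1 (1.53 ± 0.35, adjusted p = 0.0184) and GDPD2 (1.31 ± 0.19, adjusted p = 0.000143), both falling less in ein2-5, against 1.19% of all genes. At 24 h it differed for GDPD2 (1.88 ± 0.18, adjusted p = 4.92e-08) and PHO1;H1 (0.75 ± 0.20, adjusted p = 0.0259), against 3.19%. GDPD1 was lost without replicates 2 or 3 of wild type in MS, replicate 2 of untreated wild type, replicate 3 of ein2-5 in MS or replicate 1 of untreated ein2-5 (0.0531 to 0.0734), and PHO1;H1 without replicate 1 of either genotype in MS, replicate 2 of untreated wild type or replicates 1 or 2 of untreated ein2-5 (0.0642 to 0.0958). Without replicate 3 of untreated ein2-5, 8 of the 10 genes passed at 24 h in place of 2, and SPX1 (1.63, adjusted p = 0.00857) and PHO1;H1 (0.87, 0.0350) passed at 3 h. PHO1;H1 at 3 h also passed without replicate 2 of either genotype in MS or replicate 3 of untreated wild type, and PAP17 without the last (1.07, 0.0401). At 24 h GDPD1, SPX3, MGD3 or SQD2 passed without 1 or more of 6 libraries: replicate 2 of wild type in MS, replicates 1 and 3 of untreated wild type, replicates 1 and 2 of ein2-5 in MS and replicate 3 of untreated ein2-5.

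The AA effect was lower at 24 h than at 3 h for 4 genes in wild type, against 3.94% of all genes in that direction, and for 3 in ein2-5, against 6.16%. In wild type these were GDPD2 (-3.15 ± 0.19, adjusted p = 1.05e-12), GDPD1 (-1.55 ± 0.35), PAP17 (-1.19 ± 0.28) and PHO1;H1 (-0.82 ± 0.21). In ein2-5 they were GDPD2 (-2.77 ± 0.18, adjusted p = 1.39e-11), GDPD1 (-1.31 ± 0.33) and SPX1 (-1.29 ± 0.35), the last lost without replicate 3 in MS at 24 h (-0.95, adjusted p = 0.0772). PAP17 passed in ein2-5 without replicate 3 in MS at 3 h (-0.91, 0.0296). For PHT1;4 the difference between times was 0.01 ± 0.27 in wild type and -0.16 ± 0.26 in ein2-5.

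Wider lists of the phosphate pathway were read beside the 10 genes. Of 22 regulators, 10 rose in AA against MS at 3 h in wild type and 7 in ein2-5, where 6.2% and 6.62% of all genes rose. Among them was WRKY75, a transcription factor of the phosphate response (2.11 ± 0.25 in wild type, adjusted p = 2.32e-07). STOP1 (0.64 ± 0.08, adjusted p = 4.94e-07) and ZAT6, a zinc finger factor (1.15 ± 0.15, adjusted p = 7.91e-07), also rose in wild type. ZAT6 had risen in MS against untreated too (1.93 ± 0.17 in wild type at 3 h), where most of the 10 genes fell. At 24 h 1 of the 22 rose in AA in wild type and 1 in ein2-5, near the 6.48% and 5.9% of all genes. In MS against untreated 7 regulators fell and 3 rose in wild type at 3 h, and 4 fell and 6 rose in ein2-5. Of all genes tested 17.4% fell and 15.8% rose in wild type, and 14.4% fell and 17.3% rose in ein2-5, so the 3 that rose in wild type and the 4 that fell in ein2-5 lie near these shares. The SPX genes SPX2 (-0.93 ± 0.13) and SPX4 (-1.06 ± 0.17) fell in wild type, as did IPS1, a non-coding RNA that sequesters miR399, from 5.07 to 0.193 CPM (-4.63 ± 0.92, adjusted p = 0.00017). AT3G01310, which encodes a VIH kinase of inositol pyrophosphates, rose from 21.6 to 106 CPM (2.29 ± 0.08, adjusted p = 5.07e-20). PHR1 itself stood at 53.6 CPM in AA and 49.4 CPM in MS in wild type at 3 h (0.12 ± 0.07, adjusted p = 0.39).

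Of 16 transport genes 12 could be tested. In AA against MS at 3 h 2 rose and 3 fell in wild type, and 2 rose and 2 fell in ein2-5, where 6.2% and 6.62% of all genes rose and 3.8% and 6.22% fell. G3PP1, a glycerol-3-phosphate permease, rose in wild type (0.99 ± 0.12, adjusted p = 3.89e-07) after it had fallen in MS against untreated (-1.29 ± 0.12), and these comparisons share the MS libraries. PHO1, the exporter that loads phosphate into the xylem, fell in AA in wild type from 66.2 to 36.6 CPM (-0.85 ± 0.09, adjusted p = 9.23e-09) and in ein2-5 (-0.68 ± 0.09). Its relative PHO1;H1 rose in wild type (0.46), a call lost without 5 of its 6 libraries, and did not pass in ein2-5. The transporter PHT1;1 also fell in wild type (-0.54), but it shares reads with near-identical copies and its value is uncertain.

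Of 15 genes of lipid remodelling 14 could be tested, and in MS against untreated 6 fell and 1 rose in wild type at 3 h, and 4 fell and 2 rose in ein2-5. Against the 17.4% and 14.4% of all genes that fell and the 15.8% and 17.3% that rose, the 2 of 14 that rose in ein2-5 lie near the share of all genes. DGD1, which makes digalactolipid (-0.87 ± 0.09, adjusted p = 1.63e-09), SQD1, which makes the sulpholipid head group (-0.84 ± 0.12), and GDPD4, a relative of GDPD1 (-0.92 ± 0.13), fell in wild type. In AA against MS at 3 h 2 of the 14 rose in wild type and 0 in ein2-5, where 6.2% and 6.62% of all genes rose. Among the 2 was PLDP2, a phospholipase D (1.39 ± 0.33 in wild type, adjusted p = 0.00455). Of 17 phosphatases and phosphate-releasing enzymes 14 could be tested, and in MS against untreated at 3 h 6 fell and 1 rose in wild type, and 3 fell and 2 rose in ein2-5, the last 2 counts near the same shares of all genes. PECP1, a phosphatase of phosphocholine and phosphoethanolamine, fell from 14.5 to 0.497 CPM in wild type (-4.85 ± 0.82, adjusted p = 1.89e-05) and in ein2-5 (-1.94 ± 0.67, adjusted p = 0.0265). The untreated levels of both IPS1 and PECP1 spread widely, with SDs of 4.59 and 10.8 CPM (n = 3) in wild type, and in ein2-5 the PECP1 libraries overlapped. In AA against MS at 3 h 1 of these 14 fell in wild type and 3 in ein2-5, where 3.8% and 6.22% of all genes fell.

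The levels of the 10 genes were positively correlated over the 30 libraries in all 45 pairs, with a median r of 0.64 on log2 CPM, from 0.04 for GDPD2 with PHT1;4 to 0.92 for GDPD1 with PAP17. These values describe libraries that share conditions and RNA. Outside the 10, the genes most like GDPD1 were AT4G35750 (r = 0.90), SPX2 (0.90) and AT2G27830 (0.89). Those most like PAP17 were PFA-DSP4 (0.90), G3PP1 (0.90) and AT4G22820 (0.90). Those most like SPX1 were MO1 (0.86), AT4G02100 (0.86) and AT3G25597 (0.86), and those most like MGD3 were PLDP2 (0.88), PPSPASE1, a pyrophosphatase (0.85), and AT5G03545 (0.82).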

How the data were processed

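Poly(A) RNA of whole seedlings was sequenced as paired ends on a NovaSeq X Plus, per the labels' protocols. The authors deposited expected counts: per the file header, featureCounts 2.0.3 counted read pairs without strand, and pairs with several places were given to each in fractions. Per the submitters' processing notes, HISAT2, SAMtools, DESeq and DESeq2 were used with TAIR10. Of all values 6.31% were not whole, and they were rounded. SQD2 had 12 of 30 values that were not whole, the other genes 0 to 2.

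Genes were kept by filterByExpr with a minimum count of 10 (21256 of 27655), scaled by TMM factors (0.958 to 1.058) and fitted with a mean per group to 30 libraries in edgeR 4.0.16 (R 4.3.3). Comparisons (19) used the quasi-likelihood F test with Benjamini-Hochberg adjustment. SEs were the log2 fold change over the root of F, and log2 CPM for correlations used a prior count of 2. The code was tested on simulated data. Genes from wider lists were named by smallest adjusted p, up to 3 per direction, from 5 CPM in the higher group. Members and lists were chosen with earlier results of these data known.

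Motifs were searched in TAIR10.1, whose coordinates are given. The window of 300 bases upstream was added after the hits in the other windows had been seen, so that no transcribed sequence is printed. Alternatives were RLE and upper-quartile scaling, no filter, DESeq2 1.42.0, the compared libraries alone, a replicate block, and each library left out. Figures used matplotlib 3.10.9.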

Additional observations from a re-analysis of the deposited data

Results flagged for a closer look

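In 12 cases an effect on one of the 10 genes differed between genotypes or times by an interaction term (edgeR's quasi-likelihood test with Benjamini-Hochberg adjustment). GDPD2 stood out in all 5 contrasts in which any gene did. Its AA response at 3 h was smaller in ein2-5 by -1.16 on the log2 scale (adjusted p = 0.00744). Its AA response was lower at 24 h than at 3 h by -3.15 in wild type and -2.77 in ein2-5. Its fall in MS was smaller in ein2-5, with differences of 1.31 at 3 h and 1.88 at 24 h. GDPD1 had a lower AA response at 24 h than at 3 h in wild type (-1.55) and ein2-5 (-1.31), and its fall in MS at 3 h was smaller in ein2-5 (1.53). PHO1;H1 (-0.82) and PAP17 (-1.19) had a lower AA response at 24 h in wild type, and SPX1 in ein2-5 (-1.29). The change of PHO1;H1 in MS at 24 h differed between genotypes by 0.75. The comparisons share their MS libraries, so these differences are not separate observations.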

How the results depend on the processing

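Of 71 values past the threshold among the 10 genes (of 190), 45 kept their call in every setting run. RLE or no filter gave 2 genes higher in ein2-5 in AA at 3 h in place of 1. No filter also gave 1 gene in place of 0 for AA by genotype at 24 h and 4 in place of 2 for MS by genotype at 24 h. The compared libraries alone gave 6 in place of 3 for AA in wild type at 24 h, 0 in place of 1 for untreated genotypes, 5 in place of 1 and 6 in place of 3 for genotypes in AA at 3 h and 24 h, 1 in place of 0 for AA by genotype at 24 h and 1 in place of 2 for MS by genotype at 3 h. Over all genes they gave 1728 in place of 2730 for AA in ein2-5 at 3 h, 2116 in place of 3191 for MS in ein2-5 at 24 h, 771 in place of 2215 for genotypes in MS at 3 h, 5 in place of 15 for AA by genotype at 3 h and 87 in place of 313 for MS by genotype at 3 h. DESeq2 gave 1 in place of 0 of the 10 genes for AA by genotype at 24 h, and over all genes 57 and 152 for AA by genotype at 3 h and 24 h (15 and 63) and 543 for MS by genotype at 3 h (313). The cause was not tested. The share of higher calls in AA by genotype at 3 h was 40% and became 55% with RLE, 52.6% with no filter and 71.9% with DESeq2. With upper-quartile scaling the share in other comparisons shifted too. It moved by 11.7 percentage points to 46.5% for untreated genotypes and by -10.6 to 33.8% for AA by genotype at 24 h. For MS by genotype at 3 h it moved by -17.8 to 62.7%, and with DESeq2 by -14.4 to 66.1%. No scaling moved the median of all genes by more than 0.0490.

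Replicate numbers did not pair libraries: deviations of same-numbered libraries correlated at -0.0041 on average, and 5 of 30 were closest to their own number. With a replicate block 8 genes in place of 15 passed for AA by genotype at 3 h, and 4 calls among the 10 genes were lost: PAP17 in AA in wild type at 24 h (adjusted p = 0.0560), MGD2 in AA in ein2-5 at 24 h (0.0536), SPX1 (0.0559) and MGD3 (0.0611) between genotypes in MS at 3 h and 24 h (all edgeR).

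Leaving out each library in turn gave 1 to 4 of the 10 genes for AA in wild type at 24 h, 5 to 9 for MS in wild type at 24 h, 0 to 1 for untreated genotypes, 2 to 5 and 1 to 6 for genotypes in MS at 3 h and 24 h, 0 to 2 and 1 to 4 for genotypes in AA, 0 to 1 for AA by genotype at 24 h, and 1 to 4 and 1 to 8 for MS by genotype at 3 h and 24 h. Over all genes it gave 1949 to 2761 for AA in ein2-5 at 24 h, 588 to 745 for untreated genotypes, 1260 to 2380 and 1592 to 2168 for genotypes in MS, 1073 to 1286 and 1340 to 1893 for genotypes in AA, 3 to 18 and 31 to 69 for AA by genotype, and 148 to 543 for MS by genotype at 3 h. A sign changed in 65 values of 29 results, of which 62 came from leaving out a library, and none of the 65 was past the threshold before or after. The other 3 were PHT1;4 for AA by time in wild type (-0.00104 with RLE, -0.00621 alone, -0.00159 with DESeq2). The lowest and highest log2 values without 1 library follow. For AA against MS, ein2-5, 24 h, these were GDPD1 (-0.11 to 0.24), SPX1 (-0.16 to 0.39), SPX3 (-0.031 to 1.45), SQD2 (-0.043 to 0.15). For MS against untreated, ein2-5, 3 h, these were SPX1 (-0.10 to 0.66), MGD3 (-0.19 to 0.90), PHT1;4 (-0.11 to 0.33). For MS against untreated, ein2-5, 24 h, these were SPX1 (-0.44 to 0.40), SPX3 (-0.30 to 1.80), MGD3 (-0.36 to 1.06), SQD2 (-0.11 to 0.17). For ein2-5 against wild type, untreated, these were MGD2 (-0.062 to 0.35), PHT1;4 (-0.36 to 0.0604), PAP17 (-0.18 to 0.30). For AA by genotype, 3 h, these were MGD3 (-0.087 to 0.60), PHT1;4 (-0.00397 to 0.35). For AA by genotype, 24 h, these were SPX3 (-1.35 to 0.13), MGD2 (-0.081 to 0.58), MGD3 (-0.84 to 0.37), SQD2 (-0.21 to 0.0295), PHT1;4 (-0.16 to 0.14), PAP17 (-0.15 to 0.10). For AA by time, wild type, these were MGD2 (-0.39 to 0.27), MGD3 (-0.0204 to 0.94), PHT1;4 (-0.14 to 0.22). For AA by time, ein2-5, these were MGD2 (-0.23 to 0.014), MGD3 (-0.52 to 0.57), PHT1;4 (-0.39 to 0.013). For MS by genotype, 24 h, these were MGD2 (-0.049 to 0.61). Depth limits SPX3, whose MS levels in wild type at 3 h were 0.162 to 0.268 CPM.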
